A study of Mus musculus with 6 samples.

Results

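The Krüppel-like factors are transcription factors that bind GC-rich and CACC-containing DNA through zinc fingers near their C terminus. In the intestinal epithelium Klf4 is best known from differentiated cells, where it restrains division, and Klf5 from dividing crypt cells, where it promotes it. Klf2, Klf4, Klf6 and Klf10 are also known as genes that respond quickly to outside signals, and Klf9 as a gene induced by glucocorticoids. The members described here are 10 family genes taken by symbol, Klf2, Klf3, Klf4, Klf5, Klf6, Klf7, Klf9, Klf10, Klf13 and Klf15, of 23224 genes in the deposited table. Of these, 9 passed the filter on low counts and were among the 12137 genes tested; Klf15 did not.

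RNA was sequenced from 3 SOX17KO and 3 Control libraries of mouse tumour organoids, cultures of epithelial cells grown from tumours that had formed in an animal. The labels call the organoids AKP and do not spell the name out, and both groups carry it. SOX17 was deleted with CRISPR-Cas9 in the SOX17KO group to study its role in colon cancer. The labels do not give guides, clones, culture conditions or the treatment of Control cells. They also do not say whether replicates are separate cultures, so p-values measure the spread between these libraries, which may be technical.

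Libraries held 18290912 to 27503254 counts. Sox17 itself had 33.8, 41.9 and 45.1 CPM (counts scaled to a common library total) in SOX17KO replicates 1, 2 and 3, against 34.4, 34.5 and 34.2 CPM in Control replicates 1, 2 and 3. Its RNA was thus not lower in the edited group and does not check the labels, so every direction below is between groups as labelled. SOX17KO replicate 1 stood apart: its log2 CPM over the tested genes correlated at 0.960 and 0.963 with the other SOX17KO libraries, which correlated at 0.986 with each other. With the Control libraries SOX17KO replicate 1 correlated at 0.946 to 0.951, and SOX17KO replicates 2 and 3 at 0.968 to 0.970. The latter were thus closer to Control than to SOX17KO replicate 1. Control libraries correlated at 0.994 to 0.995 with each other. Epithelial markers were abundant, with summed levels of 10280 to 14605 CPM in SOX17KO and 13685 to 14496 CPM in Control, although Krt20, a marker of differentiated cells, stayed at or below 0.506 CPM. Krt20 had only 6 counts in SOX17KO and 30 in Control and was not tested. Its CPM was lower in every SOX17KO library than in any Control library. Summed markers of fibroblasts were at 0.554 to 0.992 CPM in SOX17KO and 0.143 to 0.266 CPM in Control, and those of endothelium, where Klf2 is prominent, at 2.33 to 2.94 CPM in SOX17KO and 2.39 to 3.00 CPM in Control, most of it Vwf. Of the fibroblast markers 4 of 10 had 0 counts in every library, Col3a1, Dcn, Lum and Thy1, and Col1a1 had 6 counts in SOX17KO and 0 in Control. Of the endothelial markers Cldn5 and Emcn, 2 of 8, had 0 counts, while Tek had 25 counts in SOX17KO and 5 in Control, Esam 17 in SOX17KO and 32 in Control, and Cdh5 4 in SOX17KO and 12 in Control. Immune markers summed to 5.19 to 14.0 CPM in SOX17KO and 8.56 to 10.96 CPM in Control, most of it Cd68, and Ptprc had 29 counts in SOX17KO and 26 in Control.

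With all 6 libraries no member was called between the groups at a Benjamini-Hochberg adjusted p below 0.05 in edgeR's quasi-likelihood test: 0 of 9 were higher and 0 of 9 lower, where 3.67% of all tested genes were called higher, 3.2% lower and 6.87% either way. At an unadjusted edgeR p below 0.05 there were 4 members, Klf2, Klf6 and Klf9 on the higher side and Klf4 on the lower side, and 20.3% of all tested genes met that limit. The Wald test of DESeq2 called 2 members higher, Klf2 and Klf9, and 1 lower, Klf4, with 5.75% and 4.99% of its genes called in those directions, and limma-voom called 0. The median log2 fold change of the 9 was 0.090, against 0.014 over all tested genes, and 6 of the 9 had a positive value. In 3 members, Klf4, Klf5 and Klf9, the groups did not overlap, as in 28.2% of all tested genes. Leaving out SOX17KO replicate 1 moved the count more than any other change: Klf2, Klf6 and Klf9 were then called higher and Klf4 lower, in a fit that called 11.9% of all genes higher and 10.3% lower.

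**Figure D1:**
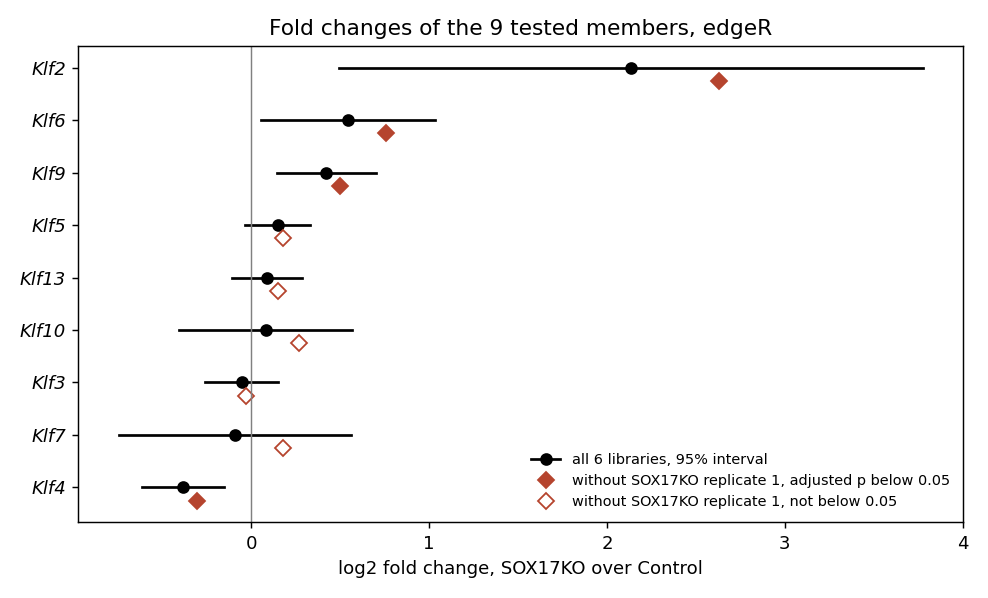
Log2 fold change of SOX17KO over Control (horizontal axis) for the 9 tested members, with all 6 libraries (black points, lines are 95% intervals) and without SOX17KO replicate 1 (diamonds, filled where the edgeR adjusted p was below 0.05). The intervals of Klf2, Klf6, Klf9 and Klf4 lie off 0 before adjustment, and these are the 4 filled diamonds.

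Compared per kilobase of exon, Klf4 was the most abundant member in every library. In SOX17KO it averaged 95.7 ± 10.1 CPM per kilobase (SD, n = 3), followed by Klf6 at 47.1 ± 13.8, Klf5 at 39.7 ± 1.73 and Klf3 at 30.4 ± 1.56. Klf13, Klf10, Klf9, Klf2, Klf7 and Klf15 came after them, from 14.8 ± 1.11 down to 0.151 ± 0.0610 CPM per kilobase. Within SOX17KO the ranges of Klf6 and Klf5, of Klf13 and Klf10, of Klf10 and Klf9 and of Klf2 and Klf7 overlapped. Compared library by library, Klf10 was above Klf9 and Klf2 above Klf7 in every SOX17KO library. Klf6 was below Klf5 in SOX17KO replicate 1 only, and Klf13 below Klf10 in SOX17KO replicate 3 only. In Control Klf4 averaged 124.8 ± 3.67 CPM per kilobase (SD, n = 3), followed by Klf5 at 35.9 ± 1.78, Klf6 at 32.3 ± 1.64 and Klf3 at 31.6 ± 2.39. There Klf7 stood above Klf2, and the lowest was again Klf15, at 0.0387 ± 0.0149. Only the ranges of Klf6 and Klf3 and of Klf13 and Klf10 overlapped between neighbours in Control. Exon lengths came from a later annotation than the one the counts were made with, so these levels are approximate.

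Klf4 made up 36.6% to 38.9% of the summed level per kilobase of the 10 members in SOX17KO libraries, against 47.5% to 48.1% in Control libraries. Klf6 made up 14.7%, 18.9% and 20.5% in SOX17KO replicates 1, 2 and 3, against 12.4% ± 0.485 in Control (SD, n = 3). The total over the 10 members did not separate the groups: it was 256.9 ± 35.4 CPM per kilobase in SOX17KO and 261.2 ± 9.58 in Control (SD, n = 3 each). By library the total was 218.3, 264.8 and 287.7 CPM per kilobase in SOX17KO replicates 1, 2 and 3, against 251.1 to 270.1 in Control. The Klf4 share was lower and the Klf6 share higher in every SOX17KO library than in Control. In SOX17KO replicate 1, where the total was lowest, the Klf6 level itself lay inside the Control range. It was 32.1 CPM per kilobase there, against 30.6 to 33.9 in Control. The Klf5 share was 13.9% to 17.3% in SOX17KO and 13.5% to 13.9% in Control. The Klf3 share was alike, at 11.9% ± 1.24 in SOX17KO and 12.1% ± 0.603 in Control (SD, n = 3 each).

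**Figure D2:**
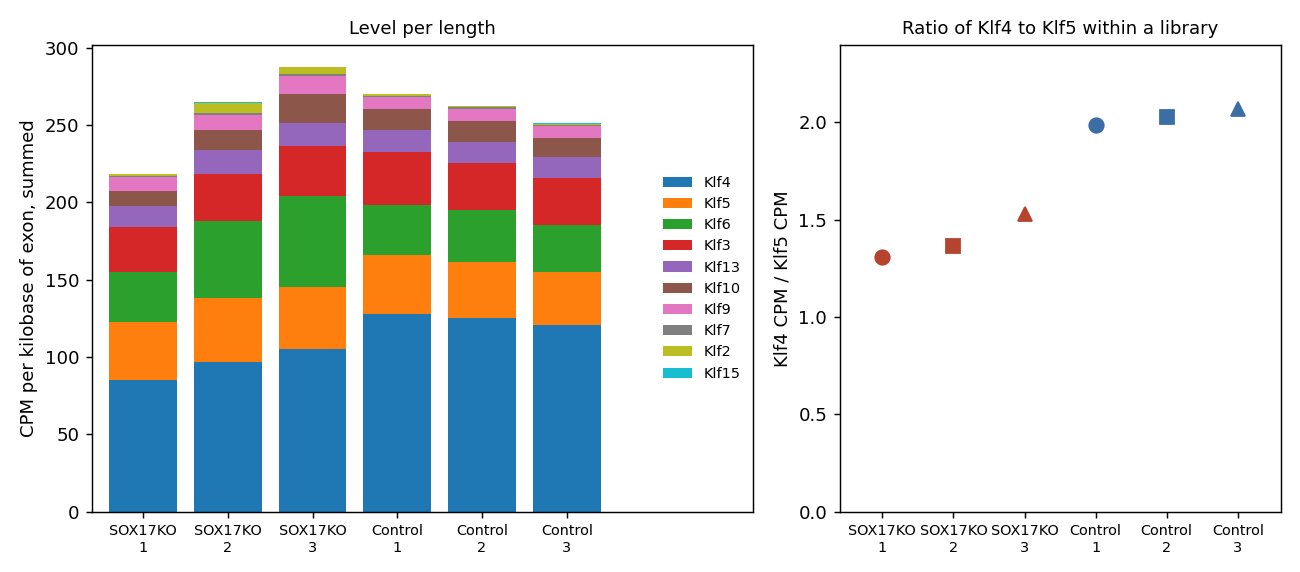
Left, CPM per kilobase of exon summed over the 10 members in each library, coloured by gene; right, the ratio of Klf4 CPM to Klf5 CPM within each library, SOX17KO in red and Control in blue. The Klf4 share is smaller in all 3 SOX17KO libraries, where the ratio is 1.31 to 1.53, than in the Control libraries, where it is 1.99 to 2.07.

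Klf4, the factor of differentiated epithelium, had 257.5, 293.4 and 318.5 CPM in SOX17KO replicates 1, 2 and 3, against 388.3, 379.6 and 366.2 CPM in Control replicates 1, 2 and 3. Every SOX17KO library lay below every Control library, and the lowest was SOX17KO replicate 1. The fold was 0.767 (95% interval 0.654 to 0.899), with a log2 fold change of -0.38 ± 0.10 (SE) that missed the threshold (edgeR adjusted p = 0.0666). It passed with DESeq2 (adjusted p = 0.00597), with library totals only (edgeR adjusted p = 0.0477) and without SOX17KO replicate 1 (log2 fold change -0.31, edgeR adjusted p = 0.0128), and adjusted p ranged from 0.00597 to 0.252 over all 14 alternatives. In bulk RNA, fewer cells of a type and less RNA per cell cannot be told apart. Of 10 goblet and secretory markers, cells in which Klf4 is known to act, 5 were tested and 1 was called, Foxa3, a transcription factor, which rose to 55.1 ± 3.08 CPM in SOX17KO, against 27.8 ± 1.08 CPM in Control (edgeR adjusted p = 0.00132). Fcgbp, a mucus protein, lay on the other side at 17.3 ± 7.15 CPM in SOX17KO and 31.8 ± 6.05 CPM in Control and was not called (edgeR adjusted p = 0.174). With DESeq2, and likewise without SOX17KO replicate 1, 3 of these markers were called higher and 1 lower. Over all genes, 3.67% were called higher by edgeR with all libraries, 5.75% by DESeq2 and 11.9% without SOX17KO replicate 1. The shares called lower were 3.2%, 4.99% and 10.3%. The sum of the 10 markers was 212.5, 487.5 and 406.2 CPM in the SOX17KO libraries in replicate order, and between 292.4 and 335.3 CPM in the Control libraries, mostly from Agr2. The part of these markers in the Klf4 level was not tested. Tff3, a goblet cell product, had at most 0.0554 CPM in any library.

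Klf5, the factor of dividing crypt cells, had 196.9, 214.6 and 208.2 CPM in SOX17KO replicates 1, 2 and 3, against 195.4, 187.1 and 176.9 CPM in Control replicates 1, 2 and 3. The groups did not overlap, but SOX17KO replicate 1 and Control replicate 1 were close together. Its fold of 1.11 (95% interval 0.975 to 1.26) did not pass (edgeR adjusted p = 0.356). Because these opposed factors lay on opposite sides of Control, their ratio was taken after the values had been seen, and it does not depend on how libraries are scaled. Klf4 CPM over Klf5 CPM was 1.31, 1.37 and 1.53 in SOX17KO replicates 1, 2 and 3, against 1.99, 2.03 and 2.07 in Control replicates 1, 2 and 3. Means were 1.40 ± 0.115 in SOX17KO and 2.03 ± 0.0412 in Control (SD, n = 3 each), a gap larger than the spread within either group. No test is given for a ratio chosen on these values.

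Klf2, a factor known from endothelium and quiescent lymphocytes, was a low gene here with the largest fold of the tested members. It had 1.37, 12.2 and 8.14 CPM in SOX17KO replicates 1, 2 and 3 (36, 278 and 147 counts), against 1.92, 1.67 and 1.33 CPM in Control replicates 1, 2 and 3 (53, 35 and 35 counts). Replicates 2 and 3 of SOX17KO were far above Control and replicate 1 lay within the Control range. The log2 fold change of 2.13 ± 0.70 (SE) had a 95% interval of 0.49 to 3.77 and did not pass (edgeR adjusted p = 0.131); DESeq2 did call it (adjusted p = 0.00950). Dropping SOX17KO replicate 1 moved the log2 fold change to 2.63 (edgeR adjusted p = 3.01e-05), and dropping SOX17KO replicate 2 gave 1.51. Summed levels of the 8 endothelial markers were 2.94, 2.33 and 2.94 CPM in the SOX17KO libraries in replicate order, and 3.00, 2.39 and 2.89 CPM in the Control libraries. Vwf alone gave 1.91, 1.89 and 2.33 CPM of the SOX17KO sums, so the sum says little about the other markers. The part of endothelial cells in the Klf2 level was not tested.

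Klf6, a widely expressed family member that also responds to injury and growth signals, had the same library pattern at a much higher level. It had 135.6, 211.9 and 249.7 CPM in SOX17KO replicates 1, 2 and 3, against 137.0, 143.3 and 129.5 CPM in Control replicates 1, 2 and 3. Again SOX17KO replicate 1 fell inside the Control range and the other SOX17KO libraries lay above it. The fold of 1.46 (95% interval 1.04 to 2.04) did not pass (edgeR adjusted p = 0.196), nor did it with DESeq2 (adjusted p = 0.0871). Leaving out SOX17KO replicate 1 moved the log2 fold change to 0.75, against 0.54 with all libraries (edgeR adjusted p = 0.000179), and leaving out SOX17KO replicate 3 gave 0.35.

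**Figure D3:**
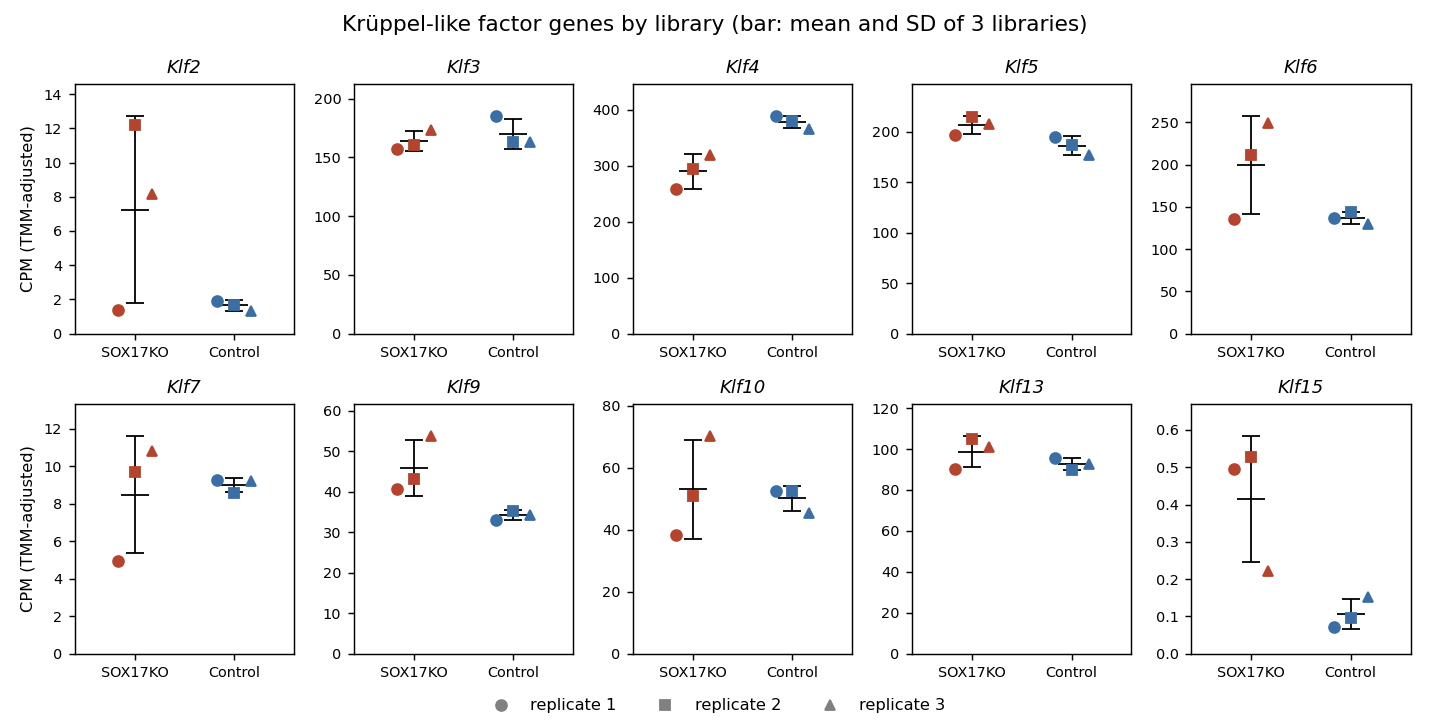
CPM of each of the 10 members (vertical axes, each from 0) in SOX17KO libraries (red, left) and Control libraries (blue, right), with marker shape for the replicate number and black bars for mean and SD of 3 libraries. Klf4 is lower in all 3 SOX17KO libraries, while Klf2 and Klf6 are above Control in SOX17KO replicates 2 and 3 and not in replicate 1.

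Klf9, the glucocorticoid-induced member, had 40.7, 43.2 and 53.6 CPM in SOX17KO replicates 1, 2 and 3, against 32.9, 35.3 and 34.3 CPM in Control replicates 1, 2 and 3. All SOX17KO libraries lay above all Control libraries. Its fold was 1.34 (95% interval 1.10 to 1.62), a log2 fold change of 0.42 ± 0.12 (SE) that did not pass (edgeR adjusted p = 0.0888) but did with DESeq2 (adjusted p = 0.0349) and without SOX17KO replicate 1 (log2 fold change 0.50, edgeR adjusted p = 0.00550). Its log2 fold change was 0.30 when SOX17KO replicate 3 was dropped. Of 10 other glucocorticoid-induced genes 9 were tested, 2 were called higher and 8 lay on the positive side, where 3.67% of all tested genes were called higher. Their median log2 fold change was 0.33, against 0.014 over all tested genes. Without SOX17KO replicate 1, 6 were called higher, in a fit that called 11.9% of all genes higher. Mt2, a metallothionein, rose to 204.6 ± 30.2 CPM in SOX17KO, against 60.8 ± 3.85 CPM in Control (edgeR adjusted p = 0.000718). Sgk1, a kinase, rose to 22.8 ± 4.76 CPM in SOX17KO, against 13.4 ± 0.231 CPM in Control (edgeR adjusted p = 0.0325). Mt2 and Sgk1 were highest in SOX17KO replicate 1, at 228.6 and 28.15 CPM, the SOX17KO library with the least Klf9. Fkbp5 and Cebpd, also on the list, were highest there too, while Tsc22d3, Per1, Dusp1, Errfi1 and Ddit4 were lowest there, as Klf9 was. Tsc22d3 and Per1, of the same list, were not called (edgeR adjusted p = 0.763 and 0.683). Nr3c1, which encodes the glucocorticoid receptor, averaged 81.5 ± 19.1 CPM in SOX17KO and 63.7 ± 3.90 CPM in Control and was not called either (edgeR adjusted p = 0.287). The call of Sgk1 was lost with library totals only, with the replicate block and without SOX17KO replicate 3 or any one Control library (highest edgeR adjusted p 0.156), while Mt2 was called under all 14 alternatives.

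The promoters of the members with the largest changes relative to their error are shown to let their make-up be compared: Klf4, which stood lower, Klf2 and Klf6, which shared a library pattern, and Klf9. Each is the 250 bases before the RefSeq gene start on GRCm38.p6, 5′ to 3′ on the gene's strand, at chr4:55532476-55532725 (minus strand) for Klf4, chr8:72318812-72319061 (plus strand) for Klf2, chr13:5861239-5861488 (plus strand) for Klf6 and chr19:23140976-23141225 (plus strand) for Klf9. Capitals mark every match, on either strand, to the GC box GGGCGG and the CACC box CCACCC, which the family and the related SP factors bind, or to the SOX core AACAAT; matches may overlap and then form 1 run.
Klf4: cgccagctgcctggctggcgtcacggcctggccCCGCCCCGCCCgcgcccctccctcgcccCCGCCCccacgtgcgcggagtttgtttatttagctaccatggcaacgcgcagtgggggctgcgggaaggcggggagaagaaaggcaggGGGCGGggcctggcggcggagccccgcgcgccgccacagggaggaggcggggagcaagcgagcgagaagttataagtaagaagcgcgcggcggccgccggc
Klf2: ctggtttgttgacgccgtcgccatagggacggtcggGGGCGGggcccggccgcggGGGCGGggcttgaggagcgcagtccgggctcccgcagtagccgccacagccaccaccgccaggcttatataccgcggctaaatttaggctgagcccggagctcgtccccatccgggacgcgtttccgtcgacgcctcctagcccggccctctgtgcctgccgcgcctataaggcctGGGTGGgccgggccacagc
Klf6: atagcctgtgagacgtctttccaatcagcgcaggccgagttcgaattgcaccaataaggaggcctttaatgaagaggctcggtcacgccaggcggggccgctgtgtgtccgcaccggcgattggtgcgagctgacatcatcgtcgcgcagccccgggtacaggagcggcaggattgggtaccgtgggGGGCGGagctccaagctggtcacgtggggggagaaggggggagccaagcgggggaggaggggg
Klf9: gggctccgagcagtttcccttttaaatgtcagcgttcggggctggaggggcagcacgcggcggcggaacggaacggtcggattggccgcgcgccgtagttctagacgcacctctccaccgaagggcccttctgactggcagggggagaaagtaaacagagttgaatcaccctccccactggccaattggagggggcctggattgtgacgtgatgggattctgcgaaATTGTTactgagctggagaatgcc

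The Klf4 window held 4 GC boxes and the Klf2 window 2 with 1 CACC box. Klf6 had 1 GC box, and Klf9 had no GC or CACC box and 1 SOX core. The promoter table used here matched 8 of the 10 members; Klf5 and Klf10 were not analysed here. GGGCGG was in 7 of the 8 windows, against 32.7% of 32851 promoter windows of the same length, and CCACCC in 4 of the 8, against 28.1%. AACAAT was in 1 of the 8, against 9.42%, and GGTGTG, another CACC-type sequence, in 0 of the 8, against 16.3%. The 8 windows were 59.2% to 78.4% G and C, against a median of 52.4% over all promoters, and no set matched on base composition was compared. A match is only a run of letters and says nothing about binding.

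Klf13, a factor known from heart and T cells, and Klf3, a repressor that recruits the CtBP proteins, were abundant members that varied little. Klf13 had 90.4, 104.8 and 101.0 CPM in SOX17KO replicates 1, 2 and 3, against 95.8, 90.0 and 92.5 CPM in Control replicates 1, 2 and 3, and its fold of 1.06 had a 95% interval of 0.929 to 1.22 (edgeR adjusted p = 0.644). Klf3 had 157.2, 160.9 and 173.3 CPM in SOX17KO replicates 1, 2 and 3, against 185.0, 162.7 and 162.6 CPM in Control replicates 1, 2 and 3. Of the SOX17KO libraries 2 lay just below the Control range and 1 inside it, and the 95% interval of the fold ran from 0.836 to 1.11 (edgeR adjusted p = 0.810).

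Klf10, an early target of TGF-beta signalling, and Klf7, a factor of developing neurons, spread around Control. Klf10 had 38.3, 50.8 and 70.1 CPM in SOX17KO replicates 1, 2 and 3, against 52.5, 52.5 and 45.6 CPM in Control replicates 1, 2 and 3. SOX17KO replicate 1 lay below all Control libraries and replicate 3 above them. Its 95% interval for the fold ran from 0.754 to 1.48 (edgeR adjusted p = 0.892). Klf7 had 4.96, 9.70 and 10.8 CPM in SOX17KO replicates 1, 2 and 3, against 9.26, 8.56 and 9.20 CPM in Control replicates 1, 2 and 3, with 1 SOX17KO library below the Control range and 2 above it (fold interval 0.596 to 1.48, edgeR adjusted p = 0.913). The sign of its log2 fold change, -0.09, turned to 0.18 without SOX17KO replicate 1, and that of Klf10, 0.08, was 0.27 there and -0.17 without SOX17KO replicate 3. On GRCm38 the exons of Klf7 share 3196 bases with the antisense gene Gm26649; the libraries were directional, but no source used here gives the strand setting of the counting, so reads of the pair may not have been told apart.

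Klf15, a metabolic and glucocorticoid-responsive factor of muscle, kidney and liver, was nearly absent and was not tested. It had 13, 12 and 4 counts in SOX17KO replicates 1, 2 and 3, against 2, 2 and 4 counts in Control replicates 1, 2 and 3. In CPM all SOX17KO values, 0.496, 0.526 and 0.222, lay above the Control values of 0.0723, 0.0956 and 0.152, but the lowest SOX17KO library and the highest Control library both rest on 4 counts.

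Differences among the SOX17KO libraries were in several members larger than the difference between groups. On the log2 scale SOX17KO replicates 1, 2 and 3 deviated from the Control mean by -0.23, 2.85 and 2.27 for Klf2, by -0.01, 0.63 and 0.87 for Klf6, by -0.85, 0.11 and 0.26 for Klf7 and by -0.38, 0.02 and 0.49 for Klf10. Klf5 and Klf3 spanned only 0.12 and 0.14 across the same libraries. In SOX17KO replicate 1, 2 of the 9 tested members lay above the Control mean, Klf5 and Klf9, while 7 did in replicate 2 and 8 in replicate 3. Replicates 2 and 3 both exceeded replicate 1 in 9 of 9 members, where 42.3% of all tested genes did so. The scaling bears on this count: it was again 9 of 9 with RLE size factors but 6 of 9 with library totals only, where Klf3, Klf5 and Klf9 left it and the share of all genes was 32.3%. Since the members were compared after these libraries had been seen to differ, the count is a description.

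**Figure D4:**
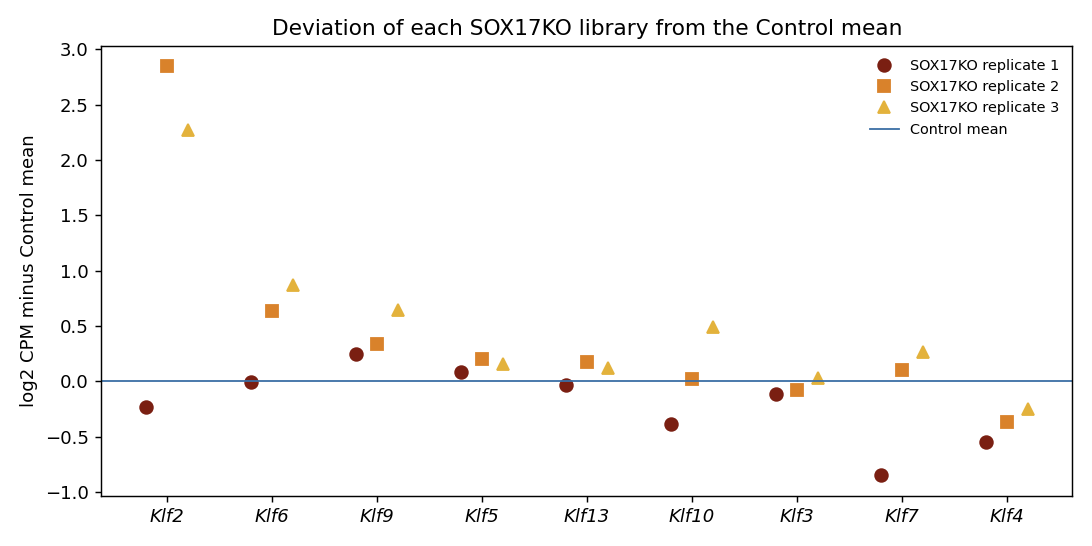
Log2 CPM (prior count 2) of each SOX17KO library minus the Control mean (blue line at 0) for the 9 tested members, ordered by fold change. Replicate 1 (dark circles) is the lowest of the SOX17KO libraries for each member, far below the others for Klf2 and close to them for Klf3 and Klf5; with library totals only this holds for 6 of the 9.

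Immediate early genes, which like several of these factors respond within minutes to signals and to handling, were mostly low in the same library. Of 17 listed genes 15 were tested, and in 12 of them replicates 2 and 3 both exceeded SOX17KO replicate 1 (11 with library totals only). Of all tested genes 42.3% did so, and 32.3% with library totals only. Summed levels of the list were 904.7, 1397 and 1443 CPM in the SOX17KO libraries in replicate order, and between 1199 and 1320 CPM in the Control libraries. Fos had 11.7, 37.1 and 39.4 CPM in SOX17KO replicates 1, 2 and 3, against 28.6, 28.5 and 23.7 CPM in Control replicates 1, 2 and 3. Between the groups 1 of the 15 was called, Jun, a partner of Fos, which rose to 50.9 ± 11.5 CPM in SOX17KO, against 18.8 ± 0.716 CPM in Control (edgeR adjusted p = 0.00511), and was higher in SOX17KO replicate 1 than in any Control library. Over all tested genes 3.67% were called higher with the same fit. Without SOX17KO replicate 1, 5 of the list were called higher, where 11.9% of all genes were. With DESeq2 2 of the list were called higher, where 5.75% of its genes were. The fit with library totals only called 2 of the list higher, and 433 genes higher in all. The part of the immediate early genes in the Klf2 and Klf6 levels was not tested.

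Among the 16 remaining KLF and SP genes, 10 were tested, 1 was called higher and 0 lower, where 3.67% and 3.2% of all tested genes were. Sp5, an SP family gene known as a direct target of Wnt signalling, had 5.84, 8.29 and 2.49 CPM in SOX17KO replicates 1, 2 and 3, against 1.23, 1.48 and 1.33 CPM in Control replicates 1, 2 and 3. It rose with a log2 fold change of 2.04 ± 0.43 (SE, edgeR adjusted p = 0.0350), and the call did not hold with limma-voom, with the replicate block and without SOX17KO replicate 2 or any one Control library (highest edgeR adjusted p 0.169). Sp8, a factor of limb and brain development, had 3.36, 9.34 and 12.6 CPM in SOX17KO replicates 1, 2 and 3, against 3.18, 3.11 and 3.00 CPM in Control replicates 1, 2 and 3, and was called without SOX17KO replicate 1 (edgeR adjusted p = 5.19e-05) and by DESeq2 with all libraries (adjusted p = 0.0136), but not by edgeR with all libraries (adjusted p = 0.113). Sp4 averaged 14.8 ± 3.01 CPM in SOX17KO and 10.1 ± 1.05 CPM in Control (edgeR adjusted p = 0.119) and was called without SOX17KO replicate 1 (log2 fold change 0.67, edgeR adjusted p = 0.00807). Of these genes 3 were called higher without SOX17KO replicate 1 and 3 with DESeq2, where 11.9% and 5.75% of all genes were. Sp6 averaged 2.12 ± 0.717 CPM in SOX17KO and 1.04 ± 0.226 CPM in Control (edgeR adjusted p = 0.131), and its exons share 3329 bases with the antisense gene Gm11532. Sp1, Sp2, Sp3, Klf1, Klf11 and Klf16 had log2 fold changes from -0.01 to 0.42 and were not called. Klf8, Klf12, Klf14, Klf17, Sp7 and Sp9 did not pass the filter on low counts, with at most 0.942 CPM in any library. Klf12 had 29 counts in SOX17KO and 1 in Control. The DESeq2 calls other than Sp5 and Sp8 fell among these filtered genes. With no low-count filter edgeR called 2 of the 16 genes higher.

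Proteins that work with the family showed no call. All 18 listed partners, among them the Klf3 corepressors Ctbp1 and Ctbp2, the Sin3a and Sin3b repressor subunits and the coactivators Ep300 and Crebbp, were tested, and 0 were called by edgeR, with 0 at an unadjusted p below 0.05 and a median log2 fold change of 0.015; DESeq2 and limma-voom called 0 as well, and 1 was called higher without SOX17KO replicate 1. Rbbp7, a histone-binding subunit and the most abundant of them, averaged 233.4 ± 48.7 CPM in SOX17KO and 214.2 ± 16.3 CPM in Control. Of 13 ubiquitin ligases and other regulators of Klf protein turnover, all tested, 1 was called, where 6.87% of all tested genes were called either way. This was Smurf1, which fell to 117.1 ± 29.3 CPM in SOX17KO, against 211.9 ± 9.91 CPM in Control (edgeR adjusted p = 0.0373). The call was lost with the replicate block and without SOX17KO replicate 2 or any one Control library. Wwp1, a ligase known to act on Klf5, averaged 67.1 CPM in SOX17KO and 62.8 CPM in Control and was not called (edgeR adjusted p = 0.595). Of 17 upstream regulators 16 were tested and 0 called by edgeR. At an unadjusted edgeR p below 0.05 there were 3, a limit that 20.3% of all tested genes met. These were Notch1 and Smad4 on the higher side and Hes1 on the lower side. Notch1 had 91.7, 28.5 and 21.9 CPM in SOX17KO replicates 1, 2 and 3, against 15.2, 14.2 and 14.0 CPM in Control (edgeR adjusted p = 0.109). DESeq2 and limma-voom also called 0 upstream regulators. Without SOX17KO replicate 1, 3 were called higher, in a fit that called 11.9% of all genes higher. The most abundant upstream regulator was Tgfbr2, a TGF-beta receptor, at 225.7 ± 42.0 CPM in SOX17KO and 224.0 ± 16.7 CPM in Control. Mapk7, the kinase that drives Klf2 in endothelium, averaged 18.3 CPM in SOX17KO and 17.4 CPM in Control (edgeR adjusted p = 0.821), and Mef2c, a factor it activates there, stayed at or below 0.145 CPM.

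Of 20 genes known as targets of Klf4 or Klf5, 17 were tested, 2 were called lower and 0 higher, with a median log2 fold change of -0.029. Of all tested genes 3.2% were called lower and 3.67% higher. Dropping SOX17KO replicate 1 gave 3 higher calls and 3 lower ones on the list, where 11.9% and 10.3% of all genes were called. DESeq2 gave 1 higher call and 2 lower ones on the list, where 5.75% and 4.99% of its genes were called. Krt4, a keratin of layered epithelia, fell to 824.0 ± 135.4 CPM in SOX17KO, against 1557 ± 75.4 CPM in Control (edgeR adjusted p = 0.00884), and Pdgfa, a growth factor, fell to 97.5 ± 18.6 CPM in SOX17KO, against 153.6 ± 8.99 CPM in Control (edgeR adjusted p = 0.0369). The calls of both were lost without any one Control library, and that of Pdgfa also with library totals only, with the replicate block and without SOX17KO replicate 2 or 3. Cdkn1a, a cell cycle inhibitor that Klf4 is known to induce, had 29.3, 97.2 and 122.1 CPM in SOX17KO replicates 1, 2 and 3, against 76.6, 73.3 and 59.3 CPM in Control replicates 1, 2 and 3, and was not called (edgeR adjusted p = 0.838). Alpi, an enterocyte product that Klf4 is known to activate, had 1 count in all. Ccnd1 and Myc, known from work on Klf5, averaged 661.1 ± 83.6 and 131.8 ± 8.16 CPM in SOX17KO, against 643.3 ± 16.6 and 128.3 ± 6.98 CPM in Control, and were not called. Of 12 absorptive cell markers 2 were tested; Hnf4a, a regulator of enterocyte identity, had 110.0, 29.97 and 49.4 CPM in SOX17KO replicates 1, 2 and 3, against 3.83, 4.06 and 3.31 CPM in Control replicates 1, 2 and 3 (edgeR adjusted p = 0.00541), and that call was lost without Control replicate 1 or 3. Fabp2, a fatty acid-binding protein of enterocytes and the other tested marker, lay on the opposite side, at 0.480 ± 0.224 CPM in SOX17KO and 1.39 ± 0.202 CPM in Control, and was not called (edgeR adjusted p = 0.0687). Of the absorptive markers DESeq2 called 2 higher and 1 lower, and edgeR without SOX17KO replicate 1 called 1 higher and 1 lower. Car1, an absorptive marker that failed the filter on low counts, had 20.0, 0.263 and 4.49 CPM in SOX17KO replicates 1, 2 and 3. Its Control values were 0.217, 0.287 and 0.0761 CPM in replicate order, so SOX17KO replicate 2 lay inside their range. Of the 10 epithelial markers 9 were tested, and 2 were called higher, Epcam and Cldn7, where 3.67% of all tested genes were. Both calls were lost with the replicate block and without any one Control library. That of Epcam was also lost with no low-count filter and without SOX17KO replicate 2 or 3. Without SOX17KO replicate 1, 5 of the epithelial markers were called higher, in a fit that called 11.9% of all genes higher.

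The members lie on 10 chromosomes, and their neighbours were read in RefSeq gene order on GRCm38.p6, a later build than the mm9 of the counts. Around 9 of the 10 members the 10 nearest tested genes had a median log2 fold change between -0.06 and 0.12. Called among the neighbours were Zfp462 beside Klf4, Tbc1d4 beside Klf5, Akr1c12 beside Klf6, Gda beside Klf9 and Tlr1 beside Klf3, all higher. Gm3716 beside Klf3 was called lower. Of all tested genes 6.87% were called either way. Klf15 differed, since its 10 neighbours on chromosome 6 had a median of -0.33, with 0 called by edgeR, and 75.3% of the 587 tested genes of that chromosome had a log2 fold change below 0, while the few counts of Klf15 were on the higher side. Smurf1 and Pdgfa both lie on chromosome 5 among genes that were themselves lower: 7 and 10 of their 10 nearest tested genes were called lower, with medians of -0.61 and -0.99.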

How the data were processed

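Values are expected counts per gene as deposited, in 1 table with 1 column per library; Bowtie, RSEM and mm9 are named in the submitters' processing notes, but no versions, annotation or strand setting. Libraries were directional and made after poly(A) selection, per the labels' protocols. Each column was matched to its sample by name, and values were rounded to whole numbers (26.65% to 30.29% per library were not whole).

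SOX17KO and Control were compared over all genes with edgeR 4.0.16 in R 4.3.3 (quasi-likelihood F test, TMM factors, filterByExpr with minimum count 10 and minimum total 15, genotype only, Benjamini-Hochberg over 12137 genes). SE is the absolute log2 fold change over the square root of F, and 95% intervals are unadjusted. CPM use TMM-adjusted totals and levels per kilobase the exon union of GENCODE vM21 (GRCm38). The intervals and the p-values take counts as independent reads, without molecular identifiers. Alternatives were DESeq2 1.42.0, limma-voom (limma 3.58.1), RLE size factors, unscaled library totals, no filter, a filter of 1 CPM in 3 libraries, unrounded values, the replicate block and each library left out. Gene order matched 99.1% of tested genes to RefSeq. Figures used matplotlib 3.10.9.

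The members and gene lists were chosen with earlier results of these data known. All members, each tested KLF or SP gene, called list genes (up to 3 per list) or otherwise a list's most abundant gene, and called neighbours are named; other genes were named after their values were seen. Protein sequences were not used here.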

Additional observations from a re-analysis of the deposited data

How the results depend on the processing

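The 0 members called higher and 0 lower stood under 6 of the 8 alternatives that kept all libraries. The exceptions were DESeq2, with 2 higher and 1 lower, and library totals only, with 0 higher and 1 lower. Leaving out each library in turn gave 0 to 3 members higher and 0 to 1 lower, the upper values without SOX17KO replicate 1. Over all genes, 446 higher and 388 lower calls became 771 and 668 with DESeq2, and 97 to 1453 higher and 94 to 1255 lower when each library was left out, the most without SOX17KO replicate 1 and the fewest without a Control library; the cause was not tested. Klf2, Klf4, Klf5, Klf6, Klf9 and Klf13 kept the sign of their log2 fold change under all 14 alternatives, and Klf3, Klf7 and Klf10 each turned it under 1, never at an adjusted p below 0.05.

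With the replicate block 183 genes were called higher and 143 lower, and 0 members either way. Deviations of same-numbered libraries from their group means correlated at -0.186, -0.0467 and -0.181 for replicates 1, 2 and 3. With so few libraries these values cannot tell whether the numbers mark a pairing, and the labels do not say. Depth limits Klf15, with 29 counts in SOX17KO and 8 in Control, and Klf2 in Control, with 123 counts over 3 libraries.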
